A study of Rattus norvegicus with 6 samples.

Results

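The genes described here encode ion channels and neurotransmitter receptors, with their auxiliary subunits. They were chosen by gene symbol alone. A gene belonged to the set when its symbol starts with Kcn, Scn, Cacn, Gabr, Gria, Grik, Grin, Chrn, Chrm, Htr, Drd, Adra or Adrb, or with Grm and a digit. Of 2890 genes that could be named on the arrays, 44 met the rule, and each is represented by its probe set with the highest mean signal. By class they were 12 potassium, 3 sodium and 7 calcium channel genes, 3 genes of GABA-A receptors, 8 of glutamate receptors, 6 of acetylcholine receptors and 5 of monoamine receptors. The nicotinic subunit gene Chrna7 was left out by name, a choice made with its response already known.

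Expression was measured on Affymetrix rat arrays in 208F, an immortal rat fibroblast line, and in FE8, a rat fibroblast line transformed by the HRAS oncogene. The groups were untreated 208F (n = 1), untreated FE8 (n = 1), and each line after 96 h in 0.3 µM 5-aza-2'-deoxycytidine (decitabine, n = 2 per line). Decitabine is a cytidine analogue that is built into DNA and traps DNA methyltransferases, so that CG sites lose methylation as cells divide. Each state is represented by 1 cell line, Hras was not among the named genes, and the labels do not say whether duplicates came from separate cultures, so the p-values cover only the spread among these arrays, part or all of which may be technical.

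Ion channels let potassium, sodium or calcium cross the membrane and set its voltage, and ionotropic receptors are channels that a transmitter opens, while metabotropic receptors signal through G proteins. Most of these genes are transcribed in neurons, muscle or secretory cells and are little expressed in fibroblasts. Several carry CG-rich promoters or are held silent outside neurons by the repressor REST. The question put to the data was which of them were turned on under decitabine, and methylation itself was not measured on these arrays.

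The 2 untreated arrays were scanned on day 1 on chips of lot 1. Treated 208F replicate 1 was scanned on day 2 (lot 2), and the other 3 treated arrays on day 3 (lot 3). The drug therefore cannot be told apart from scan day or chip lot. Array medians over 4818 tested probe sets lay between 354 and 422. Of 10 fibroblast markers 9 were measured, with summed signals of 58742 to 96030 in 208F and 30611 to 37584 in FE8. Not all were high in FE8, where Col1a1 read 131, 271 and 100, untreated first, and Col3a1 244, 28 and 95. By limma's moderated test (adjusted p under 0.05) 5 of the 9 were lower in FE8, both without the drug and under it. Of all probe sets 2.82% and 3.65% were. In the drug effect averaged over the lines, 4 of the 9 were lower and 1 higher (6.5% and 9.07% of all probe sets). Only 5 of 12 neuron markers were measured, with sums of 1109 to 1727 over all 6 arrays. Of the 3 measured epithelial markers (Krt8, Krt18 and Epcam) the sums were 145 and 168 untreated and 3039 to 4418 treated, and their part in the member values was not tested. In bulk RNA, fewer cells of a type and less RNA per cell cannot be told apart.

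The set was dim in every group. The median member signal of 208F was 113 before the drug and 196 and 121 after it. That of FE8 was 109 before it and 204 and 115.5 after it. In untreated 208F, 23 of the 44 genes lay below the 25th percentile of the array (a signal of 124), and in untreated FE8 24 did (123.25). 32 genes stayed below the array median on all 6 arrays, and 3 genes, Drd3, Grina and Kcnh3, stood above it on all 6. A probe set's brightness depends on its probes as well as on the transcript, so these positions describe signals and not the order of transcript levels.

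**Figure D1:**
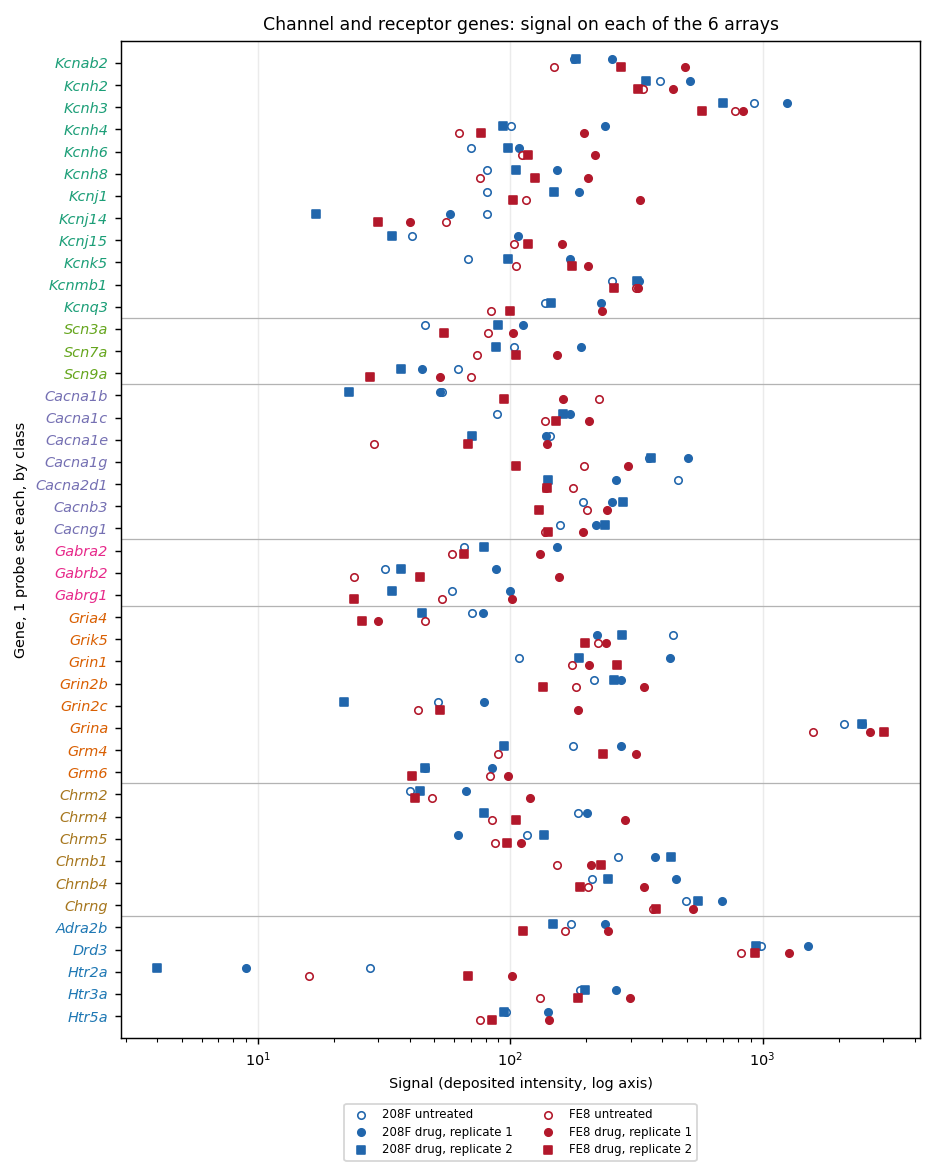
Signal of each of the 44 genes (rows, grouped and coloured by class) on the 6 arrays, on a log axis; open symbols are untreated arrays, filled circles treated replicate 1 and filled squares treated replicate 2, blue for 208F and red for FE8. Most genes lie under a signal of 354, the lowest array median, and Grina, Drd3 and Kcnh3 lie furthest to the right.

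None of the 44 genes changed under decitabine in either line by limma's moderated test (adjusted p under 0.05 over all 4818 probe sets). In 208F, 0 of 44 passed where 5.19% of all probe sets did (3.59% higher and 1.6% lower under the drug). In FE8 0 of 44 passed where 8.16% did (5.06% higher and 3.09% lower). With both lines averaged, 0 of 44 passed against 15.6% (9.07% higher and 6.5% lower). At an unadjusted p under 0.05 the members were 2 in 208F (17.7% of all probe sets), 4 in FE8 (21.3%) and 2 in the average (28.7%). Called shares were lower among dim genes, where most members lie. A mean signal of 9.667 to 191.7 was the range of 27 of the 44 members. Of all genes in it 2.35% passed in 208F, 2.63% in FE8 and 7.33% in the average. Leaving out Grina, which encodes a membrane protein and no receptor subunit, the unadjusted counts were 2, 3 and 1 of 43.

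Nor did the drug turn any member on in the sense used here, a signal below the 25th percentile of the untreated array and above the median of both treated arrays. That count was 0 of 44 in 208F and 0 of 44 in FE8, while 22 of 2890 genes (0.761%) met it in 208F and 29 (1.0%) in FE8. With a background of about 1 gene in 100, a count of 0 among 44 is near it. Chrna7 fits the symbol rule and met this definition in both lines, but it was left out by name with its response known. The 0 of 44 is thus a count without it, while Chrna7 is among the 22 and the 29. Its signal in 208F was 53 before the drug and 3756 and 4627 after it, and in FE8 115 against 3230 and 4023. Its other probe set did not follow, at 124 against 259 and 116 in 208F and 104 against 231 and 83 in FE8.

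The intervals limit what could have been missed. Drug effects are differences of log2(signal + 64), treated minus untreated, and ± marks the standard error from the fit. Over the 44 genes they ran from -1.03 to 1.03 in 208F and from -0.61 to 1.13 in FE8, with standard errors of 0.26 to 0.52. The highest upper bound of a 95% interval was 2.02 in 208F (4.05-fold in signal + 64) and 2.17 in FE8 (4.51-fold in signal + 64). For dim genes the added 64 holds a difference down, and 48 of the 264 member signals lay below 64, so a larger change in a transcript near the floor would show as a small one here.

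**Figure D2:**
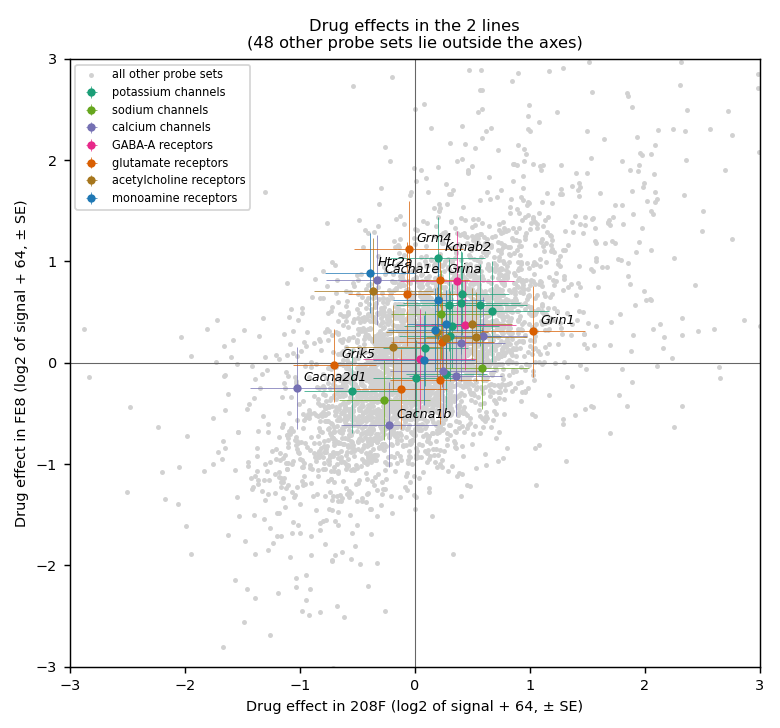
Drug effect in 208F (horizontal axis) against drug effect in FE8 (vertical axis), as differences of log2(signal + 64), for the 44 genes coloured by class with standard errors, over all other probe sets in grey. The 44 genes lie between -1.03 and 1.03 in 208F and between -0.61 and 1.13 in FE8, and 48 other probe sets lie outside the axes.

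Potassium channel genes were the largest class. They set the resting voltage and end action potentials. Their median drug effect was 0.30 in 208F and 0.44 in FE8, beside 0.12 and 0.08 for all genes. For all genes with a mean signal of 9.667 to 191.7 it was 0.22 and 0.27. In 208F 11 of 12 were above 0 and in FE8 9 of 12. The share of all genes above 0 was not counted, but their medians were above 0 too. Of all 44 members 32 were above 0 in each line, and after quantile normalization 21 in 208F and 24 in FE8. None of the 12 passed the test.

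Kcnab2 encodes a cytoplasmic beta subunit of voltage-gated potassium channels. It read 180, then 254 and 183 with the drug, in 208F and 149, then 492 and 276 with the drug, in FE8. The treated FE8 signals both exceeded the untreated one, and both treated 208F signals. The drug effect was 1.03 ± 0.41 in FE8 (adjusted p = 0.18) and 0.20 ± 0.41 in 208F. A second, dimmer probe set read 92, 276 and 85 in FE8, untreated first, so there the untreated array lay between the duplicates.

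The ether-a-go-go family had 5 members. Kcnh2, whose channel repolarises the heart, read 393, then 516 and 344 in 208F and 336, then 444 and 320 in FE8, untreated first. Kcnh3, of the Elk branch, read 928, 1254 and 697 in 208F and 777, 835 and 574 in FE8. In both genes each untreated array lay between its treated duplicates, and the drug effects were between -0.15 and 0.14. Kcnh4, Kcnh6 and Kcnh8 had signals of 63 to 238 and effects of 0.32 to 0.68.

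Inward rectifiers let potassium in more readily than out. Kcnj1, the renal secretory channel, read 81, 187 and 149 in 208F and 116, 328 and 103 in FE8, an effect of 0.67 ± 0.50 in 208F. The FE8 duplicates fell on both sides of their untreated array. Kcnj14 went the other way, at 81, 58 and 17 in 208F and 56, 40 and 30 in FE8 (-0.54 ± 0.41 and -0.28 ± 0.41), and all 4 treated arrays were below their untreated one. Kcnj15 read 41, 108 and 34 in 208F and 104, 160 and 118 in FE8.

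Of the remaining potassium channel genes, Kcnk5 encodes a background leak channel. It read 68, 172 and 98 in 208F and 106, 203 and 176 in FE8, with effects of 0.57 ± 0.41 and 0.57 ± 0.41, and all 4 treated arrays were above their untreated one (adjusted p = 0.22 in the average). Kcnmb1, the smooth muscle beta subunit of the calcium-activated channel, was level, at 254 to 325 over all 6 arrays. Kcnq3, a subunit of the neuronal M-current, read 138, 230 and 145 in 208F and 84, 232 and 100 in FE8.

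The 3 sodium channel genes encode pore subunits that carry the upstroke of the action potential, or in Scn7a an atypical sodium-sensing channel. Scn3a read 46, 113 and 90 in 208F and 82, 103 and 55 in FE8 (0.59 ± 0.41 and -0.05 ± 0.41). Scn7a read 104, 191 and 88 in 208F and 74, 153 and 106 in FE8. Scn9a, the channel of pain-sensing neurons, read 62, 45 and 37 in 208F and 70, 53 and 28 in FE8, with all 4 treated arrays below their untreated one and effects of -0.26 ± 0.39 and -0.37 ± 0.39.

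Calcium channels couple voltage to calcium entry, and their alpha1 subunits form the pore. Cacna2d1 encodes the auxiliary alpha2-delta subunit that carries channels to the membrane. It had the lowest drug effect of the 44 genes in 208F, -1.03 ± 0.40 (adjusted p = 0.20), with signals of 463 untreated and 262 and 141 treated. In FE8 the signals were 178, then 139 and 140 (-0.25 ± 0.40). All 4 treated arrays stood below their untreated array, as they did for 4 of the 44 genes and 19.1% of all genes.

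Cacna1b, the pore of the presynaptic N-type channel, read 54, 53 and 23 in 208F and 226, 162 and 95 in FE8. Its drug effects were -0.23 ± 0.42 and -0.61 ± 0.42, the latter the lowest of the 44 genes in FE8. Cacna1e, of the R-type channel, read 144, 139 and 71 in 208F and 29, 140 and 68 in FE8, so the treated arrays lay below the untreated one in 208F and above it in FE8. The difference between its drug effects was 1.15 ± 0.63 (adjusted p = 0.80).

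Among the other calcium channel genes, Cacna1c of the cardiac L-type channel read 89, 172 and 162 in 208F and 137, 205 and 152 in FE8 (0.59 ± 0.38 and 0.26 ± 0.38). Cacna1g of the low-threshold T-type channel read 354, 509 and 363 in 208F and 196, 292 and 106 in FE8. The beta subunit gene Cacnb3 read 194, 254 and 279 in 208F and 202, 242 and 130 in FE8. The skeletal muscle gamma subunit gene Cacng1 lay between 137 and 237 throughout. Apart from Cacng1 and Cacna1c, their FE8 duplicates fell on both sides of the untreated array.

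GABA-A receptors are chloride channels that inhibit neurons. Gabra2 read 66, 153 and 79 in 208F and 59, 131 and 66 in FE8. Gabrb2 read 32, 88 and 37 in 208F and 24, 156 and 44 in FE8, an effect of 0.81 ± 0.49 in FE8 (adjusted p = 0.40). Gabrg1 read 59, 100 and 34 in 208F and 54, 102 and 24 in FE8. In each of the 3 genes replicate 1 gave the highest signal of its line.

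Glutamate receptors carry most fast excitation in the brain, and NMDA receptors need the subunit encoded by Grin1. Grin1 had the highest drug effect of the 44 genes in 208F, 1.03 ± 0.45 (adjusted p = 0.26). It read 109, 432 and 187 in 208F and 176, 206 and 265 in FE8, where the effect was 0.31 ± 0.45. All 4 treated arrays lay above their untreated array, a pattern of 14 of the 44 genes and 29.4% of all genes. The 208F effect of Grin1 was 1.52 without treated 208F replicate 2 (adjusted p = 0.033) and 0.54 without replicate 1 (adjusted p = 0.63). In both fits treated 208F was 1 array, assumed to vary like the FE8 duplicates.

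Grm4 encodes a metabotropic receptor that lowers cyclic AMP. It had the highest drug effect in FE8, 1.13 ± 0.48 (adjusted p = 0.20), with signals of 90 untreated and 315 and 234 treated. In 208F the signals were 177, then 276 and 95, so the duplicates fell on both sides (-0.05 ± 0.48). The difference between the drug effects of the lines was 1.18 ± 0.67 (adjusted p = 0.83).

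Grina was the brightest of the glutamate group and, despite its symbol, encodes a membrane protein of the TMBIM family, not a subunit of the NMDA receptor. It read 2110, 2471 and 2473 in 208F and 1590, 2676 and 3030 in FE8. The FE8 duplicates stood well above their untreated array, and the drug effect there was 0.82 ± 0.26 with the smallest adjusted p of the set, 0.084. Its second probe set read 814, then 1145 and 1637 in FE8 (0.71 ± 0.30). Leaving out treated 208F replicate 1 or 2, so that the FE8 duplicates were the only pair left, the FE8 effect passed (adjusted p = 0.0072 and 0.0069). It was 0.90 without FE8 replicate 1 (adjusted p = 0.34) and 0.73 without FE8 replicate 2 (adjusted p = 0.35).

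The other glutamate receptor genes showed no common direction. Grik5, a kainate receptor subunit, read 443, 222 and 277 in 208F and 224, 241 and 198 in FE8 (-0.70 ± 0.36 in 208F, adjusted p = 0.37). Grin2b read 216, 275 and 259 in 208F and 182, 340 and 135 in FE8. Grin2c lay between 22 and 186, the AMPA receptor gene Gria4 between 26 and 78, and Grm6, of retinal bipolar cells, between 41 and 98.

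Among acetylcholine receptor genes, Chrnb1 and Chrng encode muscle nicotinic subunits, and Chrnb4 a subunit of autonomic ganglia. Chrnb1 read 268, 375 and 434 in 208F and 154, 210 and 229 in FE8, with all 4 treated arrays above their untreated array (0.49 ± 0.36 and 0.38 ± 0.36). Chrng read 499, 688 and 553 in 208F and 369, 530 and 377 in FE8, again with all 4 above. Chrnb4 read 212, 454 and 244 in 208F and 204, 339 and 190 in FE8. None of these 3 followed Chrna7, whose drug effects were 5.18 ± 0.29 and 4.36 ± 0.29.

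Muscarinic receptors couple acetylcholine to G proteins. Chrm2 lay between 40 and 120, Chrm5 between 62 and 136, and Chrm4 read 186, 201 and 79 in 208F and 85, 286 and 106 in FE8. The Chrm4 effects were -0.36 ± 0.52 and 0.71 ± 0.52, and their difference of 1.07 ± 0.73 did not pass (adjusted p = 0.95). Chrm4 also had the largest standard error of the set, 0.52, with treated duplicates of 201 and 79.

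The monoamine class included the receptor gene with the highest mean signal of the set. Drd3, a dopamine receptor, read 982, 1520 and 943 in 208F and 821, 1268 and 931 in FE8 (0.27 ± 0.34 and 0.38 ± 0.34). Htr3a, the serotonin receptor that is itself a channel, read 190, 262 and 199 in 208F and 132, 299 and 186 in FE8. Adra2b, an alpha2 adrenergic receptor, lay between 113 and 245 and Htr5a between 76 and 143.

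Htr2a encodes a serotonin receptor coupled to phospholipase C. It read 28, 9 and 4 in 208F and 16, 102 and 68 in FE8. The lines moved apart, since both treated 208F arrays lay below their untreated array and both treated FE8 arrays above theirs. The drug effects were -0.38 ± 0.39 and 0.89 ± 0.39, and their difference of 1.27 ± 0.56 did not pass (adjusted p = 0.62). All 6 signals lay below the 25th percentile of their arrays. In the difference between drug effects 0 of 44 members passed, beside 0.0623% of all probe sets (0.0208% higher and 0.0415% lower in FE8), and 1 had an unadjusted p under 0.05 (7.56% of all).

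The clearest regularity in the set was a difference between the treated replicates. In 208F replicate 1 gave the higher signal for 38 of 44 genes, beside 49.8% of all 2890 genes, and in FE8 for 40 of 44, beside 58.1%. In both lines together this held for 36 of 44 genes (81.8%) and for 34.4% of all genes. The median difference of replicate 1 over replicate 2 was 0.43 in 208F and 0.49 in FE8 for the members, and 0.00 and 0.08 for all genes. It was also seen after quantile normalization, with 38 and 36 of 44 genes.

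The difference was also present beside genes of like signal. Among all genes with a mean signal of 9.667 to 191.7, replicate 1 was higher in both lines for 45.5% of 723, and among the 27 members in that range for 25 (92.6%). In FE8 both replicates shared lot and scan day, and in 208F they did not. A second scan is on record for treated FE8 replicate 2 and for no other array. Its part in the replicate difference was not tested. The median drug effect of the members in 208F was 0.38 without replicate 2 and 0.02 without replicate 1, and in FE8 0.53 without replicate 2 and 0.06 without replicate 1.

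**Figure D3:**
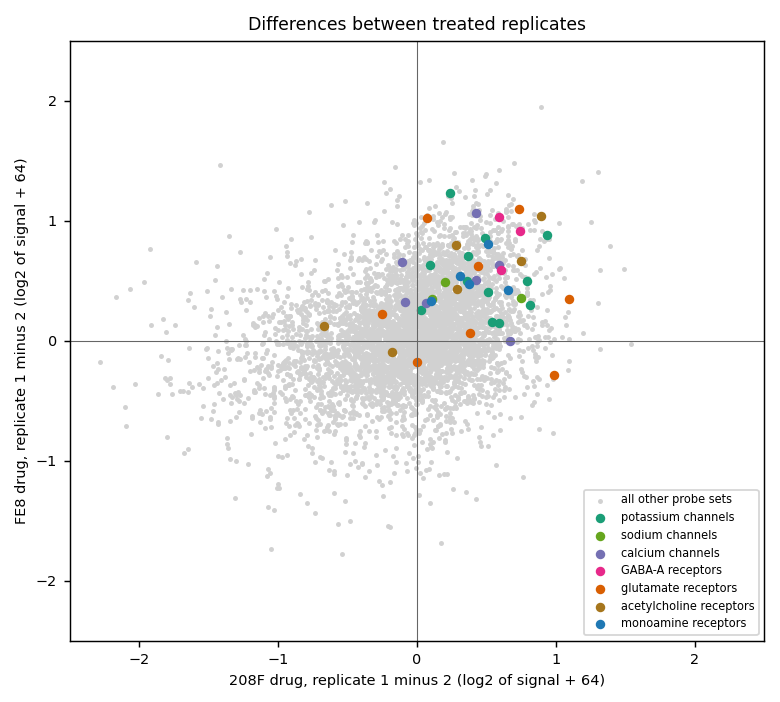
Replicate 1 minus replicate 2 of the treated arrays, as differences of log2(signal + 64), in 208F (horizontal axis) and FE8 (vertical axis), for the 44 genes coloured by class over all other probe sets in grey. 36 of the 44 genes lie in the upper right quadrant, where replicate 1 is higher in both lines.

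The shift of the whole set was small. Counting direction without a test, 32 of 44 drug effects were above 0 in 208F and 32 in FE8. The member medians were 0.23 and 0.29, and those of all genes 0.12 and 0.08. Beside genes of like signal the members differed less. Among all genes with a mean signal of 9.667 to 191.7 the medians were 0.22 and 0.27. Among the 27 members in that range they were 0.22 and 0.33. After quantile normalization, which moved the medians of all genes to -0.03 and -0.04, the member medians were -0.02 and 0.03 and the counts above 0 were 21 and 24. After scaling each array to the same median, the medians of all genes were -0.01 and -0.04, those of the members 0.11 and 0.19, and 28 and 30 members were above 0. Both treated arrays exceeded the untreated one for 22 of 44 members in 208F, beside 45.6% of all genes, and for 25 (56.8%) in FE8, beside 42.4%. Both lay below it for 7 members (15.9%) in 208F, beside 28.9% of all genes, and for 5 (11.4%) in FE8, beside 35.2%. These differences in share were not tested. Both were at least 2 times the untreated signal for 0 members in 208F (9.38%) and for 3 in FE8, Cacna1e, Grm4 and Htr2a (11.3%). Both were at most 1/2 of it for 1 member in 208F, Htr2a (2.73%), and for 0 in FE8 (4.5%).

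FE8 was next set against 208F. Without the drug (1 array per line) 0 of 44 genes passed, beside 5.92% of all probe sets (3.09% higher and 2.82% lower in FE8), and 3 had an unadjusted p under 0.05 (15.7% of all). Under the drug (2 per line) 0 of 44 passed, beside 7.08% (3.42% higher and 3.65% lower), and 4 had an unadjusted p under 0.05 (17.1%). Of all genes with a mean signal of 9.667 to 191.7, the range of 27 members, 1.2% passed without the drug and 5.3% under it. The untreated arrays differed in the ratio of 5′ to 3′ signal of control transcripts. It was 0.824 in 208F and 0.351 in FE8 for beta-actin, 0.916 and 0.691 for GAPDH, and 0.361 and 0.182 for hexokinase. Its part in the line differences was not tested. Untreated, 31 of 44 genes were lower in FE8, with a median difference of -0.19 beside 0.03 for all genes. Under the drug the median was -0.04 beside -0.01, and its sign followed single replicates: it was 0.19 without 208F replicate 1, -0.24 without 208F replicate 2, -0.27 without FE8 replicate 1 and 0.21 without FE8 replicate 2.

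Calcium channel genes held the 3 largest line differences without the drug. Cacna1b was the highest in FE8 without the drug, 1.30 ± 0.48 (adjusted p = 0.19), and stood at 0.91 ± 0.34 under it (adjusted p = 0.18). Its 3 FE8 signals (226, 162 and 95) were all above its 3 208F signals (54, 53 and 23). Cacna2d1 was lower in FE8 without the drug, at -1.12 ± 0.47 (adjusted p = 0.26), and Cacna1e at -1.16 ± 0.51 (adjusted p = 0.30). Cacna1g was the lowest under the drug, -1.01 ± 0.38 (adjusted p = 0.17), and depended on single arrays. It was -1.22 without treated 208F replicate 2 (adjusted p = 0.038) and -0.80 without 208F replicate 1 (adjusted p = 0.29). It was -1.54 without FE8 replicate 1 (adjusted p = 0.11) and -0.47 without FE8 replicate 2 (adjusted p = 0.75).

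Outside the calcium channels, Htr2a stood at 1.07 ± 0.32 under the drug (adjusted p = 0.079), and passed when the error model had no intensity trend (adjusted p = 0.048). With 1 treated replicate left out its adjusted p was 0.14 to 0.34. The muscle subunit Chrnb1 stood at -0.72 ± 0.29 (adjusted p = 0.22). Kcnj15 was at 0.68 ± 0.51 without the drug and 0.64 ± 0.36 under it. Both treated FE8 arrays lay above both treated 208F arrays for 7 of 44 genes (20.9% of all genes) and below them for 7 (22.7%).

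**Figure D4:**
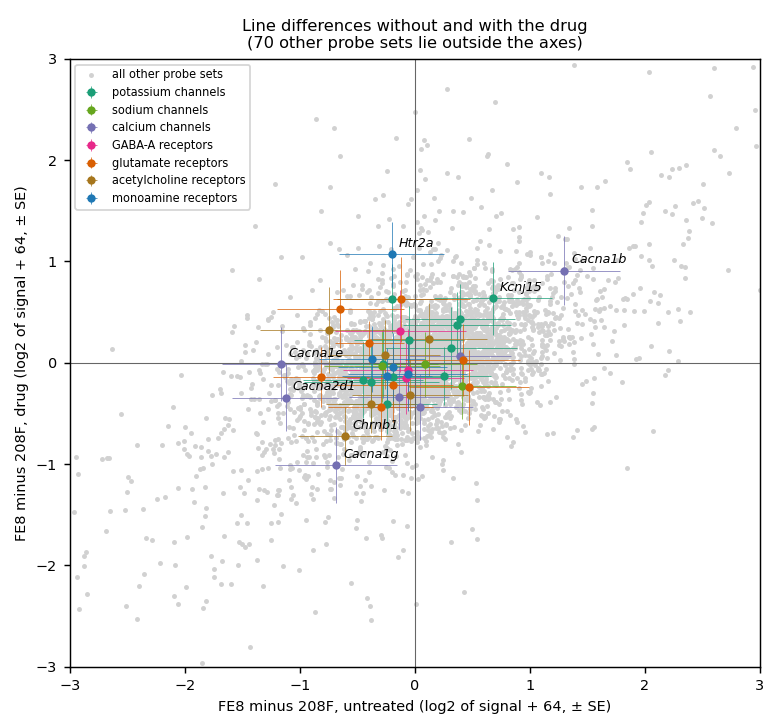
FE8 minus 208F without the drug (horizontal axis) and under it (vertical axis), as differences of log2(signal + 64), for the 44 genes coloured by class with standard errors, over all other probe sets in grey. Cacna1b lies at 1.30 and 0.91 and Cacna1g at -0.68 and -1.01, and 70 other probe sets lie outside the axes.

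Since decitabine acts on methylated CG, promoter sequence was described for the members. RefSeq windows of 300 bases (250 before the start of transcription and 50 after, build GRCr8) were matched by gene identifier for 32 of the 44 genes, and where a gene had several the one with most CG was used. The genes Cacna1g, Cacng1, Chrm5, Gabra2, Grin2b, Grina, Grm4, Htr2a, Htr3a, Kcnh2, Kcnh3 and Kcnq3 had no window. A window was called CG-dense when its G+C share was above 50% and its observed over expected CG count above 0.6. That held for 10 of 32 members (31.2%), 68.6% of 2432 measured genes with a window and 34.3% of all 27457 genes of the table.

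The 250 bases before the start are shown for 4 genes, with each CG in capitals, to set the CG-dense promoters of the genes with a high drug effect in 208F (Grin1) or FE8 (Kcnab2) beside that of a gene with a low one (Cacna1b) and beside the CG-poor promoter of the bright Drd3. All 4 lie on the minus strand and are written 5′ to 3′ in the direction of transcription. Grin1 is at chr3:28528755-28529004, Kcnab2 at chr5:168270761-168271010, Cacna1b at chr3:27944286-27944535 and Drd3 at chr11:70437794-70438043.
Grin1: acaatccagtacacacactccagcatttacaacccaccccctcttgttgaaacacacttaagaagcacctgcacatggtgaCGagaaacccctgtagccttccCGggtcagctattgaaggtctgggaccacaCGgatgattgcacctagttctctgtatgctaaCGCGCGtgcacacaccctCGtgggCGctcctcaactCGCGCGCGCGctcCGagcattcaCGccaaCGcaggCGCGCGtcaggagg
Kcnab2: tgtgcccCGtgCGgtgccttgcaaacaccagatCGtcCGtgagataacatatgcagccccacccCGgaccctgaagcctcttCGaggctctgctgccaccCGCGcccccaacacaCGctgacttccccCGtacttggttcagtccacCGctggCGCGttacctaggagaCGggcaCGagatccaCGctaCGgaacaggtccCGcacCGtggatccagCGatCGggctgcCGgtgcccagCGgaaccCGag
Cacna1b: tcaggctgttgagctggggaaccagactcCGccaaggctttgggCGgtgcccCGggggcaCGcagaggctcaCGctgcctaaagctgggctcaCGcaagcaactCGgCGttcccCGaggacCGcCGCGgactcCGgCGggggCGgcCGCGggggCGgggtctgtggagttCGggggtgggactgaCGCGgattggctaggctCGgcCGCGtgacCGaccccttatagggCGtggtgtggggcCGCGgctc
Drd3: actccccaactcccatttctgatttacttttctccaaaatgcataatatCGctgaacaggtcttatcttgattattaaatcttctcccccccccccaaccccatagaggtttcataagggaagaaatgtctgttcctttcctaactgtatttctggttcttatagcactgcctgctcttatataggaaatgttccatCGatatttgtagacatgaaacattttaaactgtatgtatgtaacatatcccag

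The 250 bases shown held 19 CG in Grin1, 24 in Kcnab2, 28 in Cacna1b and 2 in Drd3. A CG-dense promoter went with drug effects on both sides of 0. Over the 10 CG-dense members the effects ran from -1.03 (Cacna2d1) to 1.03 (Grin1) in 208F and from -0.61 (Cacna1b) to 1.03 (Kcnab2) in FE8, with medians of 0.26 and 0.34. Over the other 22 members they ran from -0.70 to 0.67 and from -0.37 to 0.82, with medians of 0.25 and 0.26. The 300-base window of Chrna7, which did respond, held 37 CG, fewer than Cacnb3 (44) and Cacna2d1 (41). Its observed over expected CG count was 1.115, above that of every member with a window, the highest being Kcnk5 at 0.983. The letters CAGCACC, the core of the REST site, searched on both strands, were in the windows of 3 of 32 members (Chrng, Htr5a and Kcnh6) and of 7.48% of all genes.

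**Figure D5:**
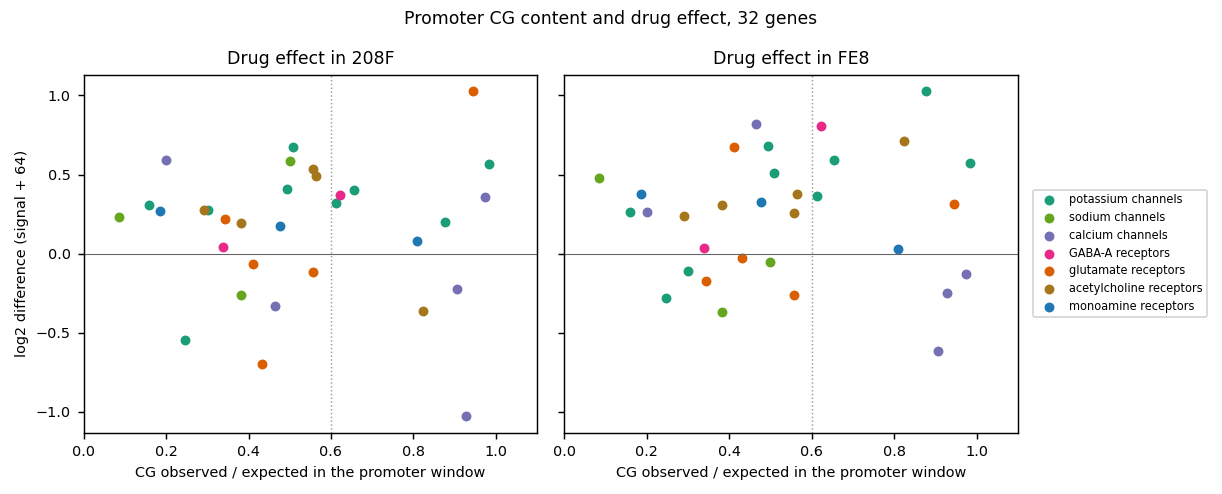
Observed over expected CG in the 300-base promoter window (horizontal axis) against the drug effect, as a difference of log2(signal + 64), in 208F (left) and FE8 (right), for the 32 genes with a window, coloured by class; the dotted line marks 0.6. Genes to the right of the line lie on both sides of 0, and the median effects of the CG-dense genes were 0.26 and 0.34.

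Genes around the channels and receptors were taken from 4 further lists. Of 11 measured genes of other channel families, the chloride transporter gene Clcn3 among them, 0 passed for the drug in either line. Of 10 other transmitter and peptide receptors, 1 rose in 208F and 0 in FE8. Of 17 genes of transmitter synthesis, transport and release, 0 passed in 208F and 1 rose in FE8. Of 11 scaffold genes 0 passed in either line. The share of all probe sets called was 5.19% in 208F and 8.16% in FE8, so 1 call in a list of this size is no result about the list. List medians were 0.26, 0.46, 0.32 and 0.16 in 208F and 0.04, 0.36, 0.34 and 0.58 in FE8, beside 0.12 and 0.08 for all genes.

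The receptor that rose in 208F was the vasopressin receptor gene Avpr1a, by 2.16 ± 0.46 (adjusted p = 0.019), from 29 to 237 and 507, while FE8 stayed at 7, 20 and 9. Under the drug Avpr1a was lower in FE8 by -2.40 ± 0.37 (adjusted p = 0.0019). The 208F call was lost without FE8 treated replicate 1 or 2 (adjusted p up to 0.095), and the line call without FE8 treated replicate 2 (adjusted p = 0.074). Tyrosine hydroxylase, the first enzyme of catecholamine synthesis, rose in FE8 by 2.54 ± 0.33 (Th, adjusted p = 0.00097), from 270 to 2048 and 1729, and its call held in all 10 other settings. In 208F it read 64, then 182 and 199. Under the drug Th was higher in FE8 than in 208F by 2.94 ± 0.27 (adjusted p = 4.3e-05). In that comparison 2 of the 17 genes of its list, Th and Slc1a3, were higher in FE8, beside 3.42% of all probe sets. The dopamine receptor Drd3 and the adrenergic receptor Adra2b, which bind catecholamines, had effects of 0.38 ± 0.34 and 0.03 ± 0.45 in FE8.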

How the data were processed

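Signal was measured in 6 arrays, 1 per untreated line and 2 per treated line. Per the submitters' processing notes the authors used MAS5, with no version or settings given in the sources used here. The deposited table gives a linear intensity for each probe set, in whole numbers. The table held 4847 probe sets, a part of the array chosen by a rule not stated, and 29 controls were left out. The other deposited files list scanner and wash settings, from which chip lots and scan days were taken. Probe sets were named from the platform annotation and updated by gene identifier to GRCr8 symbols: 3956 had 1 gene, 207 several and 655 none. Of the 44 genes, 2 had a second probe set, and 9 of the probe sets used carry the suffix for sequence shared between transcripts.

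Signals were taken as log2(signal + 64) with the deposited scaling, and 4 group means were fitted over all 4818 probe sets with limma 3.58.1 in R 4.3.3 (lmFit, eBayes with an intensity trend, 2 residual and 9.02 prior degrees of freedom). Untreated arrays, with no replicate, were given the error of the treated pairs. Tests were 2-sided with Benjamini-Hochberg adjustment over 4818 probe sets, at a threshold of 0.05. The fit was tested on simulated data. The number of arrays limits the precision. Alternatives were the pseudocount, scaling, a filter on dim probe sets, the error trend, the probe set per gene, each treated replicate left out, a replicate block and other cutoffs for turned on. Members named were the 3 brightest per class and the 3 highest and lowest per comparison, and the others are given by signal or range, except Kcnk5 and Chrm4, whose effects were added after their values were seen; other genes were up to 4 per list past the threshold. The members and lists were chosen with earlier results of these data known.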

Additional observations from a re-analysis of the deposited data

How the results depend on the processing

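The count of channel and receptor genes past the threshold was 0 in the drug effect in each line, their average, both line comparisons and the difference of drug effects. It stayed 0 with a smaller and a larger pseudocount, quantile normalization, median scaling, dim probe sets left out (19 of the 44 genes tested) and the probe set of smallest p. Without the intensity trend it was 1 for FE8 against 208F under decitabine (Htr2a) and 0 elsewhere. Leaving out each treated replicate in turn gave 0 to 1 in 208F (Grin1), 0 to 1 in FE8 (Grina), 0 to 2 in the average (Grin1 and Grina) and 0 to 1 for the treated line comparison (Cacna1g), and 0 throughout for the untreated line comparison and the difference of drug effects. Among all probe sets the drug effect then called 75 to 663 in 208F (250 with all arrays) and 76 to 783 in FE8 (393), and quantile normalization 164 and 257. The average called 264 to 1161 (750), the untreated line comparison 109 to 541 (285), the treated one 96 to 530 (341) and the difference of drug effects 0 to 206 (3). The count turned on stayed 0 in both lines with low taken as the 10th percentile, with the 40th and 60th, and with any probe set of the gene. With low as below the 50th percentile, chosen after seeing the data, it was 1 in 208F (Chrnb1) and 0 in FE8.

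Replicate numbers are shared by the treated groups, but the labels tie them to no shared culture or day. With replicate number as a block, fitted on the treated arrays, the count for FE8 against 208F under decitabine was 0 of 44. The deviations of same-numbered arrays correlated with r = 0.32 over all probe sets and 0.22 over the 44 genes. For the channel and receptor genes named by rule or called in any setting, 359 values under other settings kept direction and side of the threshold and 8 passed where the reported fit did not (4 of Grina, 2 of Grin1, 1 each of Cacna1g and Htr2a). For calls of other genes (Chrna7, Avpr1a, Th, Maoa, Clcn3, Slc1a3 and Uchl1), 117 were kept and 23 lost, none of them of Chrna7 or Th. Signals near the floor limit what the set can show, since 48 of 264 values lay below the pseudocount of 64.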

Other observations

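Of the 5 neuron markers measured, 0 passed in either line. Uchl1, a neuronal deubiquitinase, passed in the average of the lines (1.17 ± 0.28, adjusted p = 0.017), with signals of 102, 319 and 198 in 208F and 46, 244 and 213 in FE8. The call of Uchl1 was lost after quantile normalization and without either FE8 treated replicate (adjusted p up to 0.090). Snap25, of the synaptic release machinery, read 130, 159 and 34 in 208F and 54, 172 and 30 in FE8, the duplicates falling on both sides of the untreated array. Syn1, a synaptic vesicle protein, lay between 131 and 194 throughout. Map2, which binds microtubules in dendrites, read 364, 335 and 522 in 208F and 587, 220 and 320 in FE8 (0.18 ± 0.38 and -0.98 ± 0.38). Nefh, a neurofilament subunit, read 392, 609 and 783 in 208F and 481, 397 and 414 in FE8 (0.73 ± 0.32 and -0.22 ± 0.32). Monoamine oxidase Maoa, which breaks down catecholamines and serotonin, passed in the average (0.76 ± 0.22, adjusted p = 0.041), from 286 to 740 and 668 in 208F and from 437 to 541 and 652 in FE8, and lost that call in 6 of 10 other settings (adjusted p up to 0.15).

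Between the lines, 2 genes of the further lists passed without the drug. They were 1 of 11 genes of other channel families and 1 of 17 of transmitter synthesis, transport and release. The other 2 lists had 0 of 10 and 0 of 11. Of all probe sets 5.92% passed, so these calls are no result about the lists. The chloride transporter gene Clcn3 was higher in FE8 by 1.96 ± 0.37 (adjusted p = 0.0089), at 895 against 182, and the glutamate transporter gene Slc1a3 by 2.04 ± 0.51 (adjusted p = 0.038), at 581 against 93. Under the drug Slc1a3 was higher by 1.58 ± 0.36 (adjusted p = 0.021), at 287 and 551 against 66 and 121. Without either FE8 treated replicate these 3 calls were lost (adjusted p up to 0.059 for Clcn3, and for Slc1a3 up to 0.083 without the drug and up to 0.30 under it). The Slc1a3 call without the drug was also lost after quantile normalization (adjusted p = 0.12) and with dim probe sets left out (adjusted p = 0.053).

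Of the 44 channel and receptor genes, 20 had their highest signal on treated FE8 replicate 1, where 21.8% of all genes had theirs, and 13 on treated 208F replicate 1, where 14.8% did. The lowest signal fell on untreated FE8 for 16 of them (21.3% of all genes) and on treated FE8 replicate 2 for 12 (18.1%).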
